A study of Saccharomyces cerevisiae BY4741 with 5 samples.

Results

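The transcripts described here encode 7 hexose transporters (HXT1, HXT2, HXT3, HXT4, HXT5, HXT6 and HXT7) and the 3 enzymes that phosphorylate glucose after it enters the budding yeast cell (HXK1, HXK2 and GLK1). They were picked out by locus name, and all 10 were found among the 5090 transcripts counted. They were read in a study of the RNA bound by Ssd1, a yeast RNA-binding protein, by CRAC (cross-linking and analysis of cDNA), in which RNA is cross-linked to a tagged protein by ultraviolet light in living cells, purified with it and sequenced. Ssd1–HTP cells were of the strain BY4741 and carried a C-terminal His–TEV–Protein A tag on SSD1 at its own locus, followed by a Kluyveromyces lactis 3′ untranslated region and a URA3 marker. There were 2 independent clones, numbered 3 and 4, and each gave 1 library from exponential growth at 30°C and 1 after 16 min at 42°C. Cells for 42°C were collected on filters and moved into medium already at that temperature. Cells at 30°C went directly to cross-linking. Transfer and temperature therefore cannot be told apart in any comparison of 42°C with 30°C. The control was 1 library of untagged BY4741 in exponential phase at 30°C, and no control at 42°C was analysed. All cells grew in synthetic medium with glucose and without tryptophan.

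Glucose crosses the yeast plasma membrane by facilitated diffusion through the Hxt proteins, which differ in affinity and in the sugar supply under which their genes are transcribed. Hxt1 and Hxt3 are low-affinity carriers of cells growing on plentiful glucose, Hxt2 and Hxt4 belong to low glucose, Hxt6 and Hxt7 are high-affinity carriers with nearly identical sequences, and Hxt5 is made in slow growth and stress. Inside the cell the sugar is trapped by phosphorylation. Hexokinase 2 (Hxk2) does this in cells growing on glucose and also takes part in glucose repression, whereas hexokinase 1 (Hxk1) and glucokinase (Glk1) are made when glucose is scarce and in response to stress.

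Totals ranged from 111824 to 413502 counts in the 4 Ssd1–HTP libraries, against 3921 in the control. Values are given as counts and as CPM, counts scaled to the same sum in every library. Where the control had none, a level of up to 3 counts (765 CPM) remains possible, and folds over such a control are given only above that level. Counts in the control were clustered, with a median of 5 on the 560 transcripts that had any, and intervals for counting error do not cover this clustering. The heat shock transcripts HSP104, SSA4 and HSP42 were all called higher at 42°C. Of the genes deleted in BY4741, LEU2 and URA3 had no counts in any library and MET17 had 1, whereas HIS3, which is deleted only in part, had between 1 and 20 in the Ssd1–HTP libraries. The absence of URA3 counts means that the marker of the tagged clones was not seen in these counts. The MATa transcripts STE2 and MFA1 were counted in every Ssd1–HTP library, the MATalpha transcript STE3 had 12 counts in clone 4 at 42°C and none elsewhere, and MFA1 was lower at 42°C by the test described below (log2 fold change of -2.68, edgeR adjusted p = 0.0436). Its call was lost without clone 4 at 42°C (edgeR adjusted p = 0.0988) and without clone 4 at 30°C (edgeR adjusted p = 0.168), with a range of 0.00184 to 0.168 over its alternatives. SSD1 itself had 95 and 81 counts at 30°C against 209 and 302 at 42°C, with 2 in untagged cells. In CPM these were 537 and 724 at 30°C, 1233 and 730 at 42°C, and 510 in untagged cells. CRAC counts depend on the amount of an mRNA as well as on its binding, and the part of mRNA abundance in the following values was not tested, since no RNA-seq was used here.

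The 10 transcripts made up 0.203% of all counts in clone 3 and 0.152% in clone 4 at 30°C, and 0.968% and 0.924% at 42°C. The temperatures differed by more than the clones did. The kinases held most of these counts in every Ssd1–HTP library, between 68.3% and 83.7%. The temperatures were compared by the quasi-likelihood test of edgeR over the 2837 transcripts whose counts averaged 10 or more across the Ssd1–HTP libraries, with a threshold of 0.05 on the Benjamini-Hochberg adjusted p. Of the 9 hexose transcripts that passed this minimum, 4 rose (HXK1, HXT5, HXT2 and GLK1) and none fell, where 3.81% of all transcripts tested rose and 3.45% fell. Their median log2 fold change was 2.33, against 0.13 for all transcripts tested. HXT4 was too rare to be tested. Because the minimum is a mean over both temperatures, a transcript rare or absent at one of them could pass only through the other. HXT3 (6 and 6 counts), HXT5 (12 and 2) and HXT6 (6 and 9) were below it at 30°C and passed through 42°C. HXT1 (0 and 9 counts) was below it at 42°C and passed through 30°C. The transcripts were also chosen with earlier results of these data known. No conclusion about the group is therefore drawn from the number called or from the median. The values of the 2 temperatures did not overlap for 8 of the 9, with 7 higher and 1 lower at 42°C, but this was common, at 27.2% of all transcripts for higher and 25.7% for lower. Fold changes are relative to the rest of each library and do not give the total amount of binding.

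**Figure D1:**
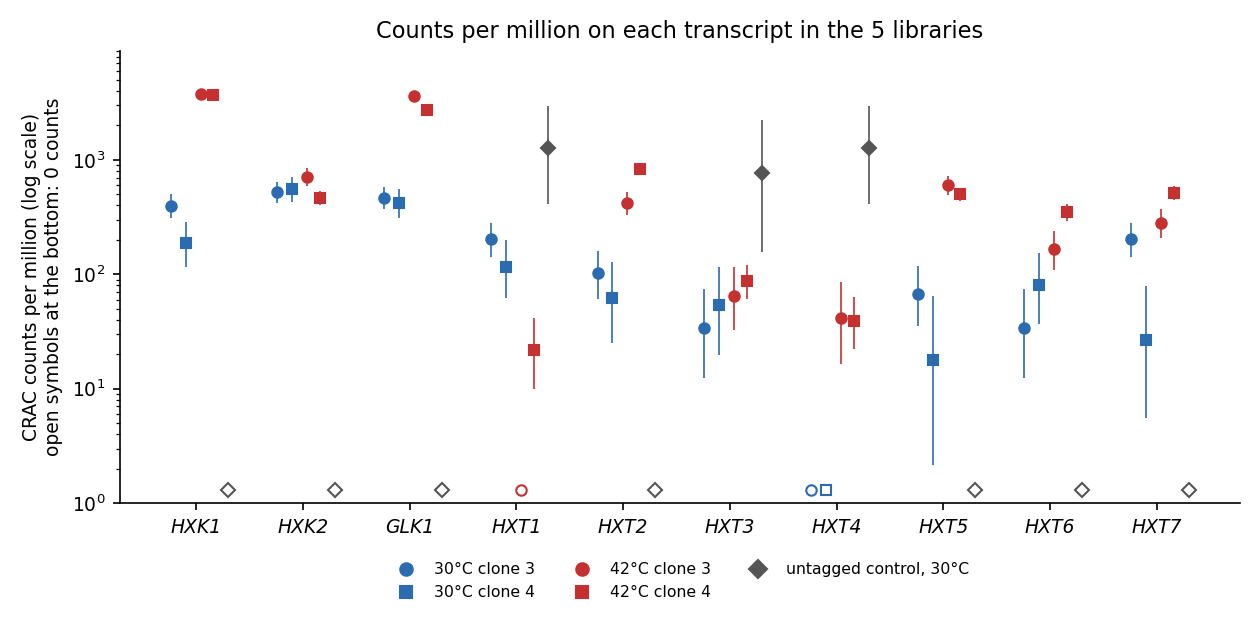
CPM of CRAC counts on each of the 10 transcripts, on a log scale, in the 4 Ssd1–HTP libraries (blue for 30°C, red for 42°C, circles for clone 3 and squares for clone 4) and the untagged control (grey diamonds), with exact Poisson 95% intervals for counting error. Open symbols at the bottom stand for 0 counts. HXK1 and GLK1 reached between 2716 and 3763 CPM at 42°C, and the control had counts only on HXT1, HXT3 and HXT4.

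HXK1 (YFR053C, chromosome VI, 253524 to 255153 on sacCer3, the build of all positions given, minus strand) had 70 and 21 counts in clones 3 and 4 at 30°C against 638 and 1535 at 42°C, with none in untagged cells. In CPM these were 396 and 188 at 30°C, and 3763 and 3712 at 42°C. The clones were far apart at 30°C and close together after heat shock, with no overlap between the temperatures. HXK1 rose by a factor of 9.51 in clone 3 and of 19.8 in clone 4, and its fitted log2 fold change was 3.74 (standard error 0.50, edgeR adjusted p = 0.00534). It moved from rank 349 to rank 36 by count among all 5090 transcripts in clone 3, and from 872 to 41 in clone 4.

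GLK1 (YCL040W, chromosome III, 50809 to 52518, plus strand) had 83 and 47 counts at 30°C against 617 and 1123 at 42°C, with none in untagged cells. The same values in CPM were 469 and 420 at 30°C against 3639 and 2716 at 42°C. Both clones were similar at 30°C, and both were well above that level at 42°C. The increase was 7.76-fold in clone 3 and 6.46-fold in clone 4 (log2 fold change of 2.91, standard error 0.41, edgeR adjusted p = 0.00634). The calls of HXK1 and GLK1 held without any single library. That of GLK1 only just passed without clone 4 at 30°C (log2 fold change of 2.83).

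HXK2 (YGL253W, chromosome VII, 23888 to 25581, plus strand) was not called in either direction. It had 93 and 62 counts at 30°C against 120 and 194 at 42°C, with none in untagged cells. These were 526 and 554 CPM at 30°C and 708 and 469 CPM at 42°C, so that the temperatures overlapped and the clones moved in opposite directions. The log2 fold change was 0.19, with a 95% interval of -0.90 to 1.28 from edgeR that leaves room for a change of either sign (adjusted p = 0.897).

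Ratios between kinases within a library need no scaling between libraries. At 30°C, HXK1 had 0.753 times the counts of HXK2 in clone 3 and 0.339 times in clone 4. At 42°C it had 5.32 and 7.91 times as many. On the log2 scale the ratio was -0.99 ± 0.81 at 30°C and 2.70 ± 0.41 at 42°C (SD, n = 2), a gap larger than the spread between the clones. With 2 libraries against 2, the smallest two-sided p of an exact permutation test is 0.333, so none is given. The share of GLK1 in the counts on the 3 kinases moved less, from 33.7% and 36.2% at 30°C to 44.9% and 39.4% at 42°C. HXK2 held 37.8% and 47.7% of them at 30°C and 8.73% and 6.80% at 42°C. The order of the kinases also changed. Per length of transcript, HXK2 had the highest density at 30°C (385 ± 17.1 TPM, counts per length scaled to a fixed sum per library, SD, n = 2) and HXK1 at 42°C (2723 ± 161 TPM). GLK1 came second at both, with 314 ± 22.3 and 2218 ± 562 TPM, and at 42°C its range over the clones overlapped that of HXK1.

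**Figure D2:**
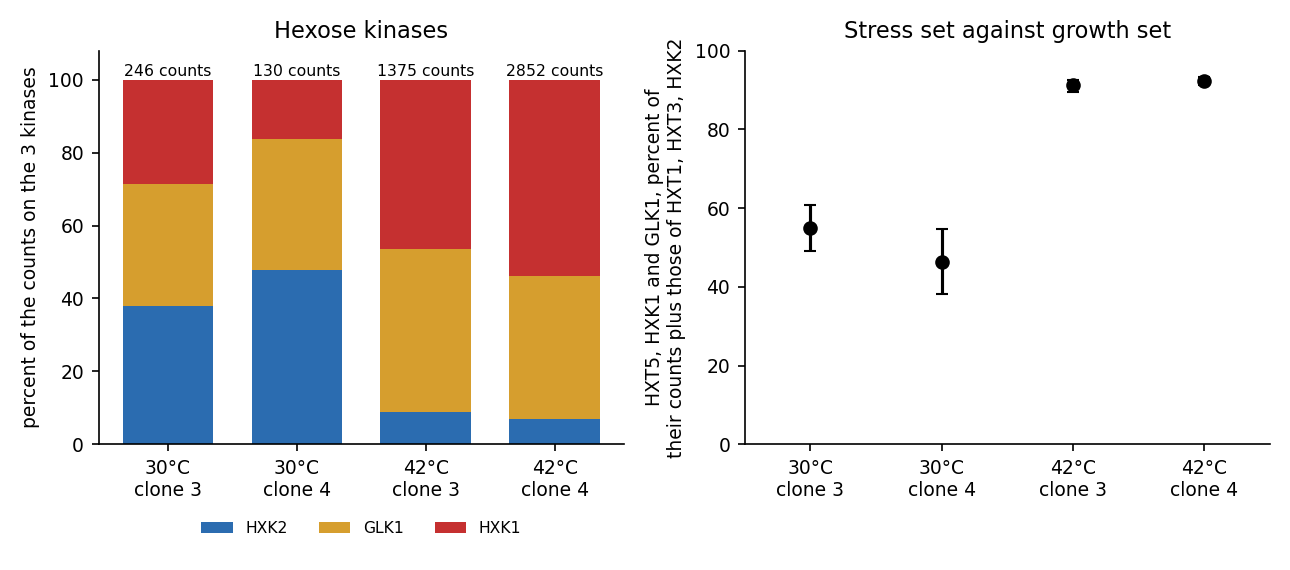
Left, shares of HXK2 (blue), GLK1 (yellow) and HXK1 (red) in the counts on the 3 kinases in each Ssd1–HTP library, in percent, with the number of counts above each bar. Right, the counts on HXT5, HXK1 and GLK1 in percent of these plus the counts on HXT1, HXT3 and HXK2, with exact Clopper-Pearson 95% intervals for counting error. The right panel reads 55.0% and 46.4% at 30°C and 91.2% and 92.3% at 42°C.

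Among the 6 transporters tested, HXT5 (YHR096C, chromosome VIII, 294544 to 296472, minus strand) had the largest fold change. It had 12 and 2 counts at 30°C against 102 and 207 at 42°C, with none in untagged cells, or 67.8 and 17.9 CPM against 602 and 501 CPM. Both libraries at 42°C lay far above both at 30°C. The log2 fold change was 3.66 (standard error 0.76, edgeR adjusted p = 0.0278), and the increase was 8.87-fold in clone 3 and 28.0-fold in clone 4. Only 14 counts stand behind the level at 30°C. The call was lost without clone 4 at 30°C (log2 fold change of 3.09) and without either library at 42°C (3.69 without clone 3 and 3.71 without clone 4), with adjusted p-values between 1.0e-04 and 0.0790 over all alternatives in edgeR and DESeq2.

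HXT2 (YMR011W, chromosome XIII, 288041 to 289819, plus strand), a carrier that is repressed by high glucose, had 18 and 7 counts at 30°C against 71 and 344 at 42°C, with none in untagged cells. These were 102 and 62.6 CPM at 30°C, and 419 and 832 CPM at 42°C. Here the clones agreed in direction but differed in size, with increases of 4.12-fold in clone 3 and 13.3-fold in clone 4. The log2 fold change was 3.02 (standard error 0.68, edgeR adjusted p = 0.0360). It was not called without clone 4 at 30°C (2.74) or without clone 4 at 42°C (2.31), with adjusted p-values between 4.2e-04 and 0.198 over all of them. After heat shock, HXT2 (413 ± 174 TPM) and HXT5 (340 ± 60.7 TPM) were the transporters with the highest density, and their ranges overlapped with each other and with HXK2. Both ranges also overlapped that of HXT7.

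HXT6 (YDR343C, chromosome IV, 1159483 to 1161345) and HXT7 (YDR342C, chromosome IV, 1154074 to 1156014), both on the minus strand, are neighbours whose reads the counting could have divided between them, so that their separate values are uncertain. HXT6 had 6 and 9 counts at 30°C against 28 and 144 at 42°C, or 33.9 and 80.5 CPM against 165 and 348 CPM. HXT7 had 36 and 3 counts at 30°C against 48 and 212 at 42°C, or 203 and 26.8 CPM against 283 and 513 CPM. For both transcripts the values at 42°C lay above those at 30°C. The ratio of HXT7 to HXT6 was 6.0 in clone 3 and 0.333 in clone 4 at 30°C, and 1.71 and 1.47 at 42°C, so the clones disagreed on which was higher only at 30°C. Neither had counts in the control. The log2 fold change was 2.33 for HXT6 (edgeR adjusted p = 0.189) and 1.85 for HXT7 (adjusted p = 0.316), and neither was called. Without clone 3 at 30°C, HXT7 was called, at 3.97 (edgeR adjusted p = 0.0228, 0.0228 to 0.656 over its alternatives). The sum of both was 237 and 107 CPM at 30°C and 448 and 861 CPM at 42°C. Tested as 1 transcript, which was decided with the values in view, the sum gave a log2 difference of 2.02 (standard error 0.66, edgeR adjusted p = 0.123). It was higher at 42°C in both clones without passing the threshold.

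HXT1 (YHR094C, chromosome VIII, 290801 to 292657, minus strand) was the only one of the 10 with a lower level at 42°C in both clones. It had 36 and 13 counts at 30°C against 0 and 9 at 42°C, with 5 in untagged cells. In CPM this was 203 and 116 at 30°C against 0 and 21.8 at 42°C. The temperatures did not overlap, but the log2 fold change of -3.49 (standard error 1.48) was not called (edgeR adjusted p = 0.232) and rests on 9 counts at 42°C. It was -2.63 without clone 3 at 42°C, and without clone 4 at 42°C the level after heat shock rested on a single library with 0 counts. HXT1 was called in none of its alternatives (adjusted p from 0.0897 to 0.498 in edgeR and DESeq2). At 30°C HXT1 had the highest density of the transporters, with 104 ± 39.4 TPM, although its range overlapped that of HXT7. At 42°C it had the lowest, with 6.72 ± 9.50 TPM.

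HXT3 (YDR345C, chromosome IV, 1162813 to 1164692, minus strand) had 6 counts in each clone at 30°C against 11 and 36 at 42°C, with 3 in untagged cells. This was 33.9 and 53.7 CPM at 30°C and 64.9 and 87.1 CPM at 42°C. The values did not overlap, by a small margin, and the log2 fold change of 0.91 had a 95% interval of -2.32 to 4.14 (edgeR adjusted p = 0.826). HXT4 (YHR092C, chromosome VIII, 287023 to 288886, minus strand) had no counts at 30°C against 7 and 16 at 42°C, with 5 in untagged cells. With each library at 30°C set to 3 counts, its mean was 1.83-fold higher at 42°C, a ratio without the counting error at 42°C. The Poisson 95% limits overlapped, reaching 33.0 CPM in clone 4 at 30°C and going down to 16.6 CPM in clone 3 at 42°C. In a fit without the count minimum it was not called (edgeR adjusted p = 0.474).

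**Figure D3:**
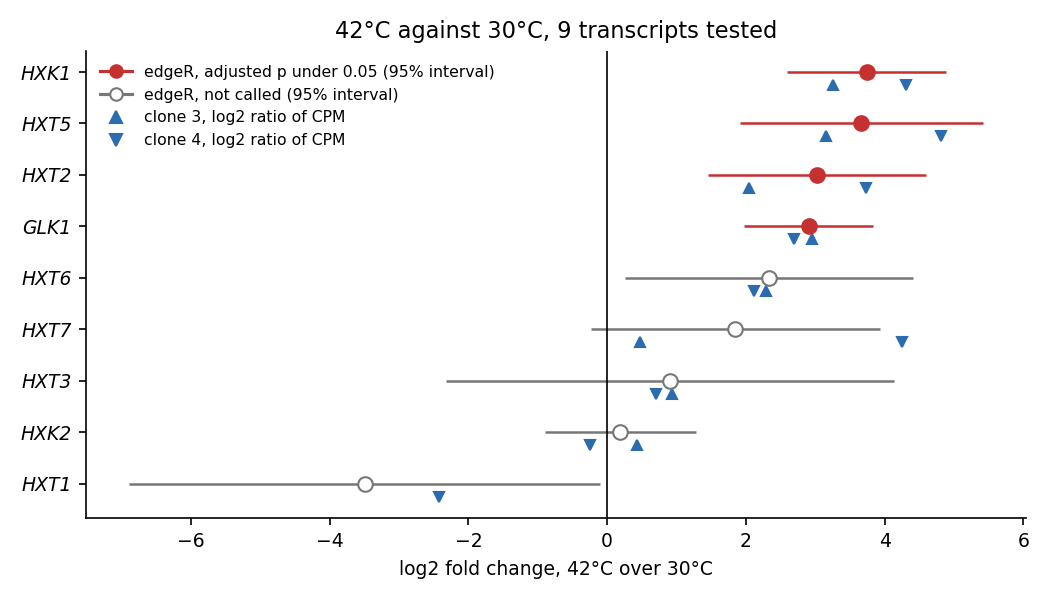
Log2 fold change of CRAC counts at 42°C over 30°C for the 9 hexose transcripts tested, from edgeR, with 95% intervals (red and filled where the adjusted p was under 0.05, grey and open otherwise). Blue triangles give the log2 ratio of CPM in clone 3 (upward) and clone 4 (downward). HXT1 has no value for clone 3, where it had 0 counts at 42°C. HXK1, HXT5, HXT2 and GLK1 lie between 2.91 and 3.74, HXK2 is at 0.19.

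The members linked with stress and those linked with growth on glucose were set against each other within each library. Counts on HXT5, HXK1 and GLK1 together were 165 in clone 3 and 70 in clone 4 at 30°C, and 1357 and 2865 at 42°C. Counts on HXT1, HXT3 and HXK2 were 135 and 81 at 30°C, and 131 and 239 at 42°C. The ratio of the first set to the second was 1.22 and 0.864 at 30°C and 10.4 and 12.0 at 42°C, which is a mean log2 ratio of 0.04 ± 0.35 and 3.48 ± 0.15 (SD, n = 2). The first set went from 932 and 626 CPM to 8004 and 6929 CPM, whereas the second stayed between 578 and 773 CPM in all 4 libraries. Over the 4 libraries HXK1 was the most counted member of the first set and HXK2 of the second. Without both, the mean log2 ratio was 1.27 ± 0.13 at 30°C and 5.46 ± 0.81 at 42°C (SD, n = 2). The distance between the temperatures remained, but the second set then held few counts. At 42°C these were 0 and 9 on HXT1 and 11 and 36 on HXT3. By gene, all 3 of the first set were called higher and none of the second in either direction, where 3.81% of all transcripts tested rose and 3.45% fell. HXT5 passed the count minimum only through its counts at 42°C, and its call was lost without some single libraries. HXT2, which is in neither set, was also called higher. The sets were chosen with earlier results of these data known, so no test is given for the ratio and no conclusion is drawn from the calls by set.

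All 6 transporters on chromosomes IV and VIII are on the minus strand in 2 groups with no other counted transcript between their members. On chromosome VIII, HXT4, HXT1 and HXT5 follow one another at distances of 1914 and 1886 nt between transcript intervals. Within this group, HXT5 rose 8.87-fold and 28.0-fold in the clones, while its neighbour HXT1 had fewer CPM at 42°C in both. On chromosome IV, HXT7 and HXT6 are 3468 nt apart, and HXT6 and HXT3 1467 nt. There the clones gave ratios of 42°C to 30°C of 4.87 and 4.33 for HXT6, 1.39 and 19.1 for HXT7, and 1.91 and 1.62 for HXT3. No interval of the 10 overlaps another transcript in the table, so no read was shared by overlap. HXT5 and HXT6 have default-length untranslated regions of 25 nt before and 125 nt after the coding region, and reads beyond those ends were not counted on them. For the other 8, mapped leaders ran from 29 nt for GLK1 to 104 nt for HXK1, with 32 nt for HXT1 and HXT3.

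Comparisons with the untagged control used total counts as library sizes. Of the 6 hexose transcripts tested at 30°C, edgeR called 0 higher or lower, where 0.887% of 2256 transcripts were higher and 2.44% lower. The count minimum applied to the Ssd1–HTP group alone, so a transcript rare in that group could not be called lower. It left out HXT3, HXT4, HXT5 and HXT6 at 30°C and HXT1 at 42°C. At an unadjusted p under 0.05, 0 of the 6 passed, against 274 of all 2256. DESeq2 gave an adjusted p for 4 of them and called 0, and edgeR with TMM factors called 1 (GLK1, edgeR adjusted p = 0.0442, 0.0442 to 0.664 over its alternatives). GLK1, HXK1 and HXK2 had no counts in the control, but their levels at 30°C were all below the 765 CPM that 3 control counts would make. No fold over the control is therefore given for them at 30°C, and the call of GLK1 depended on the scaling. At 42°C, HXK1 was at least 4.88-fold and GLK1 at least 4.15-fold higher than the control set to 3 counts (edgeR adjusted p = 0.0323 and 0.0252). These were 2 of 9 tested, with 1.15% of 3046 transcripts higher and 3.15% lower. The scaling mattered for this comparison. With TMM factors 77 transcripts were higher and 1 lower at 30°C, in place of 20 and 55, and 200 were higher and 3 lower at 42°C, in place of 35 and 96. Since the control was taken at 30°C, tag and temperature cannot be told apart at 42°C. The spread in these tests comes from the Ssd1–HTP libraries.

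HXT1, HXT3 and HXT4 were the only ones of the 10 with counts in the control (1275, 765 and 1275 CPM), a grouping made after the values were seen. Their 13 counts were 0.332% of the control library (exact Clopper-Pearson 95% interval 0.177% to 0.566%), against 0.0237% and 0.0170% at 30°C and 0.0106% and 0.0148% at 42°C. As a share of its own library, the control was higher on these 3 than any Ssd1–HTP library. Picking them by their counts in the control favours this order, so no conclusion is drawn from it. Because of the count minimum, HXT1 was tested only at 30°C, and HXT3 and HXT4 only at 42°C. None was called different there. HXT1 at 30°C had a log2 difference from the control of -2.98 (edgeR adjusted p = 0.419). At 42°C the difference was -3.31 for HXT3 (edgeR adjusted p = 0.381) and -4.97 for HXT4 (edgeR adjusted p = 0.207). With TMM factors these differences were -0.64, -0.39 and -2.05. Without the count minimum HXT1 and HXT4 were called lower at 42°C than in the control (edgeR adjusted p = 8.8e-05 and 0.0476), where 243 of 4702 transcripts were. HXT4 was also lower with only the libraries of the groups compared (edgeR adjusted p = 0.0205), where 127 of 3046 transcripts were. Each rests on 5 control counts and on the same choice by control counts, so no conclusion is drawn from these calls either.

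**Figure D4:**
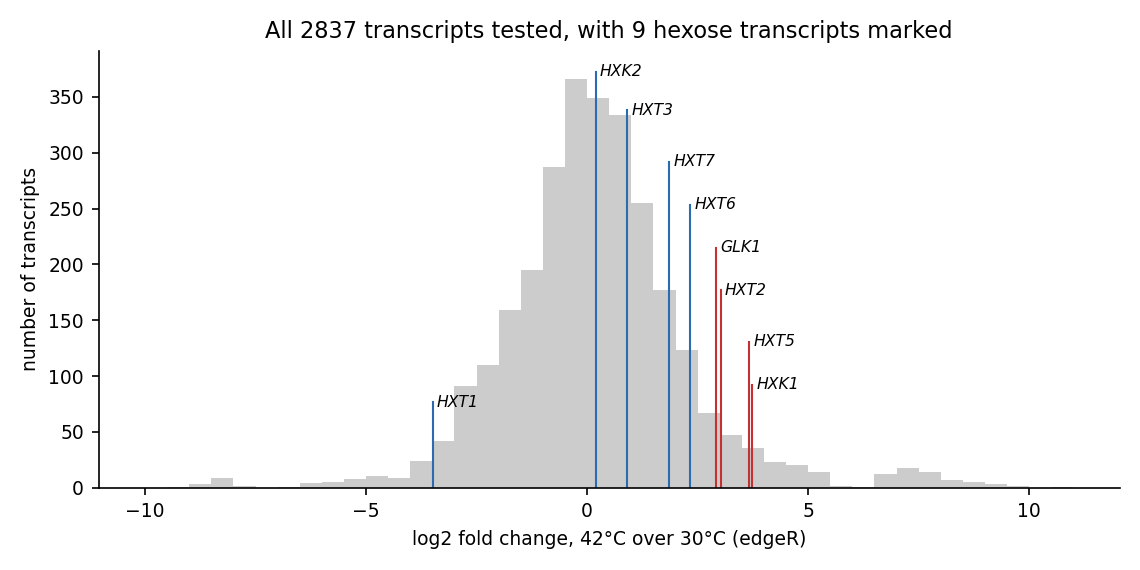
Distribution of log2 fold changes at 42°C over 30°C over the 2837 transcripts tested, in bins of 0.5, with 9 hexose transcripts marked (red for an adjusted p under 0.05 from edgeR, blue otherwise; the heights of the lines carry no value). HXK1 is at rank 138 from the top, HXT5 at 146, HXT2 at 204 and GLK1 at 215, HXK2 at 1369, and HXT1 at 79 from the bottom.

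Other genes of the pathway were taken from lists chosen by function. Calls in these lists are to be read beside the share of all transcripts tested, of which 3.81% rose and 3.45% fell at 42°C. Of 21 genes of glucose sensing and repression, 15 were tested, 1 rose and none fell, with a median log2 fold change of 0.28. The one that rose was GRR1, the F-box subunit of a ubiquitin ligase that removes repressors of the HXT genes. It had no counts at 30°C against 54 and 31 at 42°C (edgeR adjusted p = 0.0497). With each library at 30°C set to 3 counts, its mean was 8.99-fold higher at 42°C. GRR1 passed the count minimum only through its counts at 42°C, so its call carries no further weight. The call was lost without clone 3 at 42°C (edgeR adjusted p = 0.762) and without clone 4 at 30°C (edgeR adjusted p = 0.0826), with a range of 0.00241 to 0.762 over its alternatives. For GLC7, a phosphatase subunit and the most counted of this list, with 39 and 6 counts at 30°C against 96 and 118 at 42°C, the log2 fold change was 1.64 (edgeR adjusted p = 0.297). It ranged from 0.99 without clone 4 at 30°C to 3.03 without clone 3 at 30°C and was called in neither case. The glucose sensors were rare: SNF3 had 17 and 1 counts at 30°C against 11 and 0 at 42°C, and RGT2 11 and 13 at 30°C and 4 and 68 at 42°C.

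In the hexose transporter family outside the 7 described, the 9 transcripts HXT8, HXT9, HXT10, HXT11, HXT13, HXT14, HXT15, HXT16 and HXT17 had 34 counts in all over the 4 Ssd1–HTP libraries, 19 of them on HXT17, and none was tested. GAL2, the galactose permease, was the exception, with 44 and 40 counts at 30°C against 30 and 121 at 42°C, with 1 in untagged cells (log2 fold change of -0.23, edgeR adjusted p = 0.910), a difference whose sign turned in 2 alternatives. Of 6 genes of transporter turnover and trafficking, 5 were tested and none was called, with a median log2 fold change of -0.01. GSF2, an endoplasmic reticulum protein needed for the export of Hxt1, was the most counted of them, with 22 and 3 counts at 30°C against 78 and 104 at 42°C (log2 fold change of 2.22, edgeR adjusted p = 0.186). Without clone 3 at 30°C it was called, at 3.76 (edgeR adjusted p = 0.0337, 0.0337 to 0.563 over its alternatives).

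For hexose phosphates and upper glycolysis, all 11 genes were tested and 1 rose, where 3.81% of all transcripts tested rose. This was PGM2, the main phosphoglucomutase, which turns glucose 6-phosphate into glucose 1-phosphate. It had 57 and 8 counts at 30°C against 829 and 3323 at 42°C, with none in untagged cells (log2 fold change of 5.09, standard error 0.72, edgeR adjusted p = 0.00663), and was called in every alternative run. The other 10 did not pass the test. They include PGI1, which takes glucose 6-phosphate down glycolysis, with 210 and 124 counts at 30°C against 200 and 560 at 42°C, and EMI2, a relative of GLK1, with 6 and 11 counts at 30°C against 32 and 89 at 42°C. The median log2 fold change of the list was 0.24. Of 5 transcription factors of stress responses (MSN2, MSN4, GIS1, HSF1 and YAP1), all tested, none was called and the median log2 fold change was 1.27. GIS1, the most counted, had 35 and 16 counts at 30°C against 78 and 183 at 42°C (log2 fold change of 1.48, edgeR adjusted p = 0.199).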

How the data were processed

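Per the labels and the methods, reads were trimmed with flexbar, demultiplexed, collapsed by insert and random barcode nucleotides, aligned with Novoalign and counted with multiBamCov of bedtools. The authors deposited these counts without normalization, 1 interval per gene for 5090 transcripts, of which 878 had default-length untranslated regions. The processing notes name sacCer3. All 5090 RefSeq genes (assembly R64) lay inside the interval of their locus name, and symbols came from this table. The sources used here do not state whether strand was used or how reads that align to several places were treated.

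Counts were tested with edgeR 4.0.16 (limma 3.58.1, R 4.3.3) and, as an alternative, DESeq2 1.42.0. For 42°C against 30°C, the fit used TMM factors, no covariates and transcripts whose counts averaged 10 or more across the Ssd1–HTP libraries. Comparisons with the control used all 5 libraries in 3 groups, total counts and the same minimum within the Ssd1–HTP group. The p-values were adjusted over all transcripts tested at a threshold of 0.05. The standard error is the log2 fold change divided by the square root of F, with 95% intervals from the fit's t quantiles. CPM and TPM used total counts and interval lengths. Python 3.11.15, scipy 1.17.1 and matplotlib 3.10.9 were used. The tests were tried on simulated data, in which the control had the profile of the Ssd1–HTP libraries. The real control differed, so nothing is concluded from the trial about comparisons with it.

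All 10 transcripts are described, and from each further list those called at 42°C against 30°C, up to 3 in each direction, and the most counted one. HXT8 to HXT17, SNF3, RGT2, SIP2, PGI1 and EMI2 were added after their values were seen. The transcripts and lists were chosen with earlier results of these data known. Replicate numbers pair the samples, because libraries with the same number are from the same clone and were pooled during library preparation. The difference between clones at 30°C had r = -0.02 with that at 42°C over 2837 transcripts. The clones are separate cultures. Intervals and the limit of 3 counts cover counting error only.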

Additional observations from a re-analysis of the deposited data

How the results depend on the processing

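HXK1, GLK1 and PGM2 were called in all 11 alternatives for 42°C against 30°C, and HXK1, HXT5, HXT2 and GLK1 in each that kept all libraries, the replicate block of paired clones included. With this block 150 transcripts were higher, 144 lower and 4 of the hexose transcripts higher, and it changed none of their calls. Without the count minimum 174 transcripts were higher, and DESeq2 gave 165 lower. With a library left out, 75 to 193 transcripts were higher and 33 to 121 lower, and 2 to 5 hexose transcripts were higher. GAL2 changed sign when a library was left out, with log2 fold changes from -0.77 (without clone 4 at 42°C) to 0.04 (without clone 4 at 30°C) and 0.19 (without clone 3 at 42°C). Against the control at 30°C, 32 were higher and 164 lower without the count minimum, 47 higher with a mean count of at least 50, 88 higher and 6 lower with DESeq2, and 77 higher and 1 lower with TMM, which called 1 hexose transcript. Leaving out a library gave 16 to 28 higher and 26 to 78 lower. At 42°C against the control, 72 were higher and 243 lower without the minimum, 53 lower with a mean count of at least 50, 341 higher and 17 lower with DESeq2, and 200 higher and 3 lower with TMM. Leaving out a library gave 61 to 68 higher and 124 to 179 lower. DESeq2 called 6 hexose transcripts higher there and TMM 4, while 2 were lower without the minimum and 1 with only the libraries of the groups compared. Without HXK1 and HXK2, the log2 ratio of the stress to the growth set was 1.27 at 30°C and 5.46 at 42°C, and without HXT6 and HXT7 the share of counts at 42°C was 0.881%. The causes were not tested. Depth limits the comparison with the control, where 1 count is 255 CPM.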

Other observations

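At 30°C the clones differed most, as a ratio, on HXT7, with 203 CPM in clone 3 and 26.8 CPM in clone 4, and on HXT5, with 67.8 and 17.9 CPM. HXT6 (33.9 and 80.5 CPM) and HXK1 (396 and 188 CPM) followed, and HXT1 (203 and 116 CPM), HXT2 (102 and 62.6 CPM) and HXT3 (33.9 and 53.7 CPM) were closer. The clones were nearest on HXK2 (526 and 554 CPM) and GLK1 (469 and 420 CPM). At 42°C the clones gave 3763 and 3712 CPM for HXK1 and 41.3 and 38.7 CPM for HXT4. SIP2, a subunit of the Snf1 kinase complex, had no counts at 30°C and 11 and 44 at 42°C. With each library at 30°C set to 3 counts, its mean was 3.91-fold higher at 42°C. SIP2 passed the count minimum only through its counts at 42°C, so this ratio carries no further weight. It was not called at 42°C against 30°C (edgeR adjusted p = 0.197).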
